A study of Rattus norvegicus with 22 samples.

Results

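The genes described here are 10 genes of G1 cell cycle control, some of them drivers of human oral cancer: the D-type cyclins Ccnd1 and Ccnd2, their kinases Cdk4 and Cdk6, the cyclins Ccne1 and Ccna1, the INK4 inhibitors Cdkn2a and Cdkn2b, the retinoblastoma gene Rb1 and the transcription factor gene E2f1. They were taken by gene symbol from the array annotation, 10 of the 19167 symbols on the array, and each is described by its brightest probe over the 22 arrays. The tissue came from the tongues of 11 male F344 rats that drank 4-nitroquinoline-1-oxide (4-NQO), a carcinogen of the oral mucosa, at 20 ppm for 10 weeks, starting at 7 to 9 weeks of age. Each rat gave 1 piece of oral squamous cell carcinoma (OSCC) and 1 piece of adjacent phenotypically normal tongue, 23 to 26 weeks after the first exposure and at about 33 weeks of age. The normal pieces thus come from the same exposed rats, although the deposited titles call all 22 samples untreated, and no tissue of an unexposed rat enters the comparison. Carcinogen exposure is shared by both groups, so the comparison is of tumor with exposed normal tissue.

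Passage from G1 into S phase is gated by the retinoblastoma protein, which holds E2F transcription factors inactive until cyclin-dependent kinases phosphorylate it. Cyclin D with CDK4 or CDK6 begins this phosphorylation, cyclin E with CDK2 completes it, and the INK4 proteins block the D-type kinases. Cdkn2a encodes 2 proteins in different reading frames, the kinase inhibitor p16 and the growth suppressor ARF. In human oral cancer the gene is often lost or silenced and CCND1 is often amplified, while loss of the retinoblastoma protein releases transcription of p16.

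The promoters of the INK4 genes and Ccna1 are shown because these were the genes called between the tissues. No change in level was tested against a promoter sequence. RefSeq sequences on assembly GRCr8, covering 250 bases before and 50 after a transcript start, were found for 6 of the 10 members: Cdk4, Ccne1, Ccna1, Cdkn2a, Cdkn2b and Rb1. Those of Ccnd1, Ccnd2, Cdk6 and E2f1 were not analysed here. The INK4 windows are printed with every CG dinucleotide, the site of DNA methylation, in capitals. They lie on the minus strand, at chr5:109107907-109108206 for Cdkn2a and chr5:109134806-109135105 for Cdkn2b.
Cdkn2a promoter: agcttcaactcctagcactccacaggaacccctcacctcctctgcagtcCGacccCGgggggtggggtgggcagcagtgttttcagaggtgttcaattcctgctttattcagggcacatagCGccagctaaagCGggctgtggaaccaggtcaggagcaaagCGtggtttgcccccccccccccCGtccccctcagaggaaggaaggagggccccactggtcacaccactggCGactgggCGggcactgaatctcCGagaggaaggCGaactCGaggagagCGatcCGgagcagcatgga
Cdkn2b promoter: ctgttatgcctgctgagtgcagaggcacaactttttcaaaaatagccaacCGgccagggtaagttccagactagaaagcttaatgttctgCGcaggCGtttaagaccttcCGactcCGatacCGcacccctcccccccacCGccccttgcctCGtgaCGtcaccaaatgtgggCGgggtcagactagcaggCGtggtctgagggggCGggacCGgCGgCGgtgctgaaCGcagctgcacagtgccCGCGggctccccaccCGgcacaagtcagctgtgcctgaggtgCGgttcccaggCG
Cdkn2a held 13 CG dinucleotides in this window and Cdkn2b 21, against a median of 7 over 33469 promoters of the same length. The Cdkn2a window belongs to a transcript that starts 6492 bases inside the outermost start of the gene, so it is the promoter of 1 of its transcripts only.

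Ccna1 is printed with capitals at the sites of the primers designed to measure its promoter methylation. The window lies at chr2:141393251-141393550 on the minus strand of GRCr8.
Ccna1 promoter: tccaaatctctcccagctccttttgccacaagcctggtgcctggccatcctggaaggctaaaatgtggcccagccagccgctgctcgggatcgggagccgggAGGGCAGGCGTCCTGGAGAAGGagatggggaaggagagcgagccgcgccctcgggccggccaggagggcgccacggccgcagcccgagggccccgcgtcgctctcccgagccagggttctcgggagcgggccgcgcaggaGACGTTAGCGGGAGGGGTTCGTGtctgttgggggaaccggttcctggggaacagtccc
The amplicon between and including the primers, at chr2:141393286-141393448, is 163 bases long and runs from 148 bases before the transcript start to 15 bases after it. That transcript starts 34905 bases inside the outermost start of the gene in RefSeq. The amplicon holds 21 of the 26 CG dinucleotides of the window. The methylation measurements themselves were not analysed here.

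A search for the E2F binding sequences TTTGGCGC, TTTCCCGC, TTTCGCGC and TTTGCCGC on both strands found a match in the Rb1 window and in none of the other 5. Such a match was present in 716 of the 33469 promoters (2.14%). The Rb1 match is shown in capitals within 30 bases at chr15:54911837-54911866 on the minus strand of GRCr8.
Rb1 start site: ggaagtgacgtTTTCCCGCggttggcccgg
The Rb1 window held 55 CG dinucleotides, more than 99.7% of the promoters. A match describes these letters only and says nothing of factor binding.

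The array measured each member with probes of 60 bases. Probes of paralogous members are printed because their changes are compared with each other below, and those of Ccna1 and Cdkn2b because these genes were called.
Ccnd1 probe: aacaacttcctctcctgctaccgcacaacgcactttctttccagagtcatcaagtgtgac
Ccnd2 probe: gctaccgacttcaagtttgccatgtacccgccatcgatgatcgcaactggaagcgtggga
Ccna1 probe: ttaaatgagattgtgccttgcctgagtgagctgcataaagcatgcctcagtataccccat
Cdkn2b probe: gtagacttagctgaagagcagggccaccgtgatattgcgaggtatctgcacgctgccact
The Ccnd1 and Ccnd2 probes matched at no more than 21 of 60 bases at their best ungapped offset. The Cdkn2a probe matched this Cdkn2b probe at 24 bases and the brighter Cdkn2b probe at 18. On assembly rn4, which the array annotation uses, the probes lie at chr1:205361630-205361689 for Ccnd1, chr4:163535032-163541856 for Ccnd2, where the match is split by an intron, chr2:144275772-144275831 for Ccna1 and chr5:108941425-108941484 for Cdkn2b. The Cdkn2a probe at chr5:108910777-108910836 cannot be assigned here to the p16 or the ARF transcript, so its signal is called Cdkn2a throughout.

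Levels are given as the log2 of a probe's signal over the 75th percentile of its array, so that 0 is the signal of that percentile. A change is the OSCC level minus the normal level, in log2 units. A gene was called at a limma adjusted p under 0.05 and a change of at least 2-fold, a rule that called 4201 of 30367 probes (13.8%), 2083 higher and 2118 lower in OSCC. Scaling moved that split: with arrays scaled by their median 1541 were higher and 3154 lower. The median change of all probes was -0.24. Relative to it Ccnd1 was at 1.03, Ccnd2 at -0.24, Cdk4 at 0.51, Cdk6 at 1.06 and Ccne1 at 1.26. Ccna1 was at -1.69, Cdkn2a at 2.74, Cdkn2b at 1.39, Rb1 at -0.01 and E2f1 at 0.47. Calls rest on the change itself and not on these relative values. Between 48.4% and 56.1% of probes were well above background on the normal arrays, and between 52.3% and 65.5% on the OSCC arrays. The OSCC arrays were brighter, with a median 75th percentile signal of 587.3 against 381.9 on the normal arrays. Counts of arrays on which a dim probe cleared the background are thus not a measure of change.

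All normal arrays and the OSCC arrays of animals 4 and 9 were scanned in 1 batch and the 9 other OSCC arrays in another, so that 9 of the 11 pairs cross the batches. No slide held both tissues. The OSCC pieces of animals 21, 22 and 24 stood apart from the others. Markers of skeletal muscle were on average higher in OSCC than in normal tissue in these 3 pairs, by 1.91, 1.43 and 1.53, and lower in the 8 others, by 0.69 to 4.00. These means rest unevenly on the 10 marker genes. The highest change of a gene in any pair ran from 0.19 for Mb to 8.83 for Actn3, in animal 21, with 7.6 for Myh2 in animal 22. The study itself singled out animals 21, 22 and 24 as variable, and results are therefore given with and without them. It did so from expression on these same arrays. For some members the pairs left out were those that went against the mean direction. Values without these animals are thus a description and not independent evidence. In animal 24 the markers of basal squamous epithelium were also 2.35 lower in OSCC, and those of proliferating cells 2.44 lower. In bulk tissue, fewer cells of a type and less RNA per cell cannot be told apart.

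Of the 10 members, 2 were called higher in OSCC, Cdkn2a and Cdkn2b, and 1 was called lower, Ccna1, against 6.86% of all probes called higher and 6.97% called lower. By adjusted p alone 5 members passed, 4 of them higher, where 44.0% of all probes passed, 16.2% higher and 27.9% lower. The mean change was above 0 for 7 members and below 0 for Ccnd2, Ccna1 and Rb1, while 36.2% of all probes had a change above 0. All 10 members varied more among the OSCC than among the normal pieces, as did 83.2% of all probes. Without animals 21, 22 and 24, 5 members were called higher, the same 2 with Ccnd1, Cdk6 and Ccne1, and Ccna1 remained the member called lower. In these 8 pairs more of all probes were called as well, 8.69% higher and 14.1% lower.

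**Figure D1:**
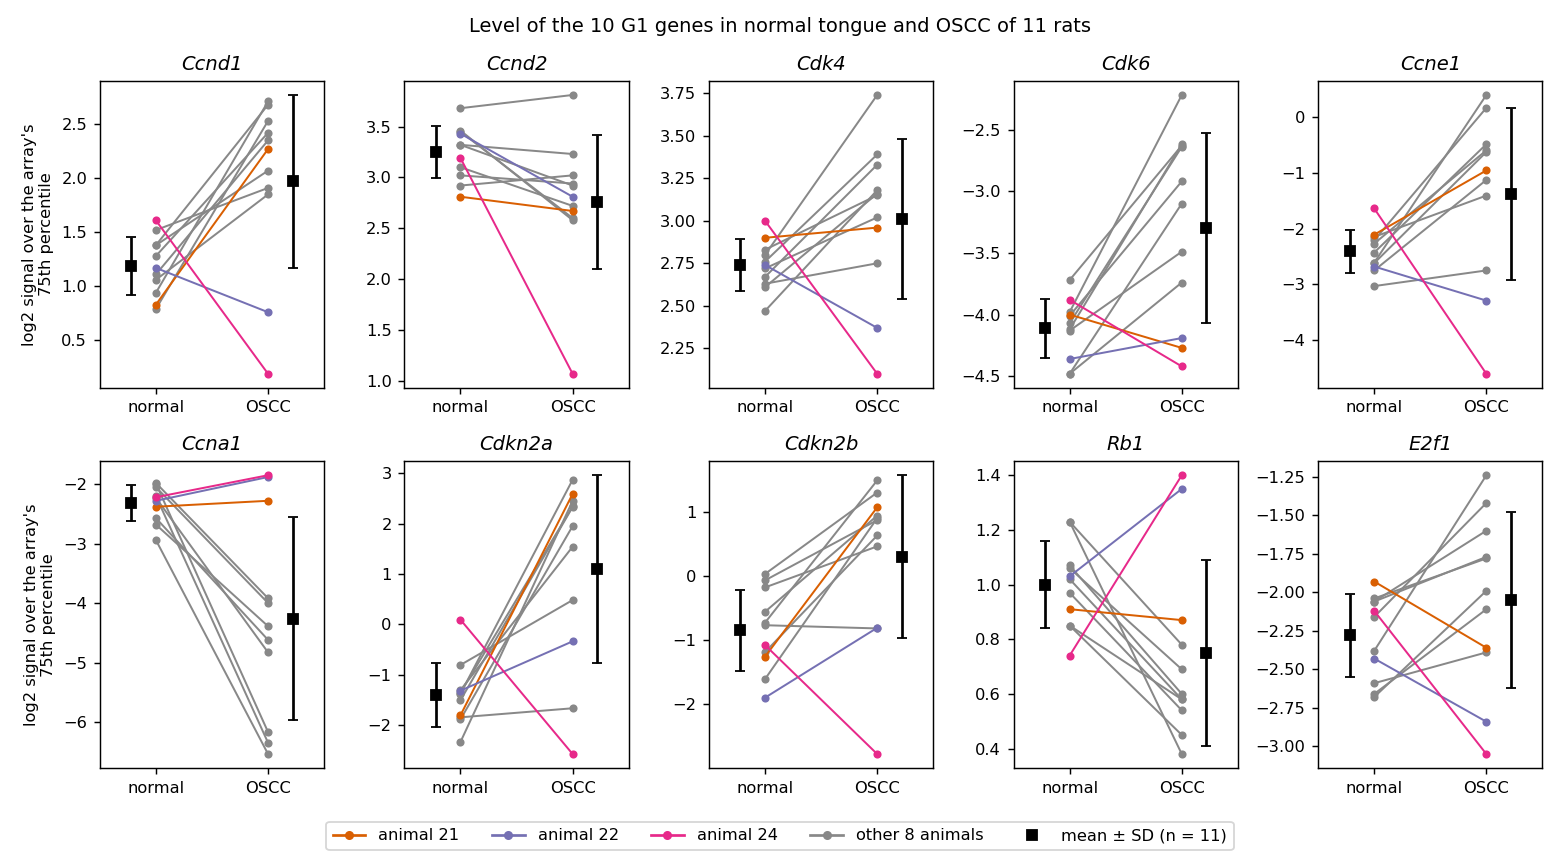
Log2 signal over the array's 75th percentile (vertical axes, a scale of its own for each gene) of the 10 members in the normal and OSCC piece of each rat. Lines join the pieces of 1 rat, black squares and bars are means ± SD of 11 pieces, and animals 21, 22 and 24 are in color. The OSCC piece of animal 24 was the lowest OSCC piece for Ccnd1, Ccnd2, Cdk4, Cdk6, Ccne1, Cdkn2a, Cdkn2b and E2f1.

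Among the D-type cyclins, Ccnd1 (cyclin D1) was higher in OSCC in 9 of 11 pairs, whereas Ccnd2 (cyclin D2), its paralog, was lower in 9. Ccnd1 ranged from 0.79 to 1.61 in normal tissue, with a median of 1.17, and from 0.19 to 2.71 in OSCC, with a median of 2.27. In 9 rats the OSCC piece lay above all normal pieces, and in animals 22 and 24 below all of them. The change was 0.79 ± 0.27 (SE, n = 11 pairs), a ratio of 1.72, with a limma adjusted p of 0.035. This passed the test but not the 2-fold limit, so Ccnd1 was not called. The pass was narrow: leaving out any 1 of 8 animals, all but 17, 22 and 24, took the limma adjusted p to between 0.0544 and 0.0756. It was 0.0994 with arrays scaled by their median, 0.0915 with slide as a random block, 0.223 with normexp background correction and 0.0886 in the 9 pairs that cross the scan batches, and 0.0539 by the methods' t-test. Without animal 24 the change was 1.01 and was called, and without animals 21, 22 and 24 it was 1.13 ± 0.17, with an increase in each of the 8 pairs left.

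Ccnd2 ranged from 2.81 to 3.68 in normal tissue, with a median of 3.32, and from 1.07 to 3.81 in OSCC, with a median of 2.81. The groups overlapped, and 5 OSCC pieces lay below the lowest normal piece. The change of -0.48 ± 0.19 (95% interval -0.90 to -0.07) had a limma adjusted p of 0.0545, and relative to the median of all probes it was -0.24. The Ccnd1 change exceeded the Ccnd2 change in all 11 pairs, by 0.21 to 1.84 and on average by 1.27 ± 0.14 (SE), with an exact two-sided sign-flip permutation p of 0.000977, the smallest that 11 pairs allow, and 0.00488 after adjustment over the 5 comparisons of this kind.

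The changes of the kinases that D-type cyclins activate differed less from each other than those of Ccnd1 and Ccnd2. Cdk4 ranged from 2.47 to 3.0 in normal tissue, with a median of 2.74, and from 2.10 to 3.74 in OSCC, with a median of 3.15. It was higher in OSCC in 9 pairs, and 7 OSCC pieces lay above all normal ones, but the change of 0.27 ± 0.16 (95% interval -0.08 to 0.63) did not pass (limma adjusted p = 0.182). Without animals 21, 22 and 24 it was 0.53 ± 0.12, higher in 8 of 8 pairs, with an adjusted p of 0.00477 by limma and still under 2-fold.

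Cdk6 was dim: its probe cleared the background on 4 of 11 normal arrays and on 8 of 11 from OSCC. It ranged from -4.48 to -3.72 in normal tissue, with a median of -4.07, and from -4.42 to -2.22 in OSCC, with a median of -3.10. It was higher in 9 pairs, lower in animals 21 and 24, and 7 OSCC pieces lay above all normal ones. The change of 0.82 ± 0.22 passed the test (limma adjusted p = 0.0119) but not the 2-fold limit. It no longer passed with quantile normalization (0.61, limma adjusted p = 0.103), with normexp background correction (0.32, 0.601) or in the 9 pairs that cross the scan batches (0.72, 0.0553). Without animals 21, 22 and 24 it was 1.20 ± 0.15 and was called. The Cdk4 change was below that of Cdk6 in 10 of 11 pairs, by 0.54 ± 0.12 on average (exact sign-flip permutation test, two-sided, adjusted p = 0.00488). That difference was not kept under quantile normalization (-0.20, adjusted p = 0.304) or normexp background correction (-0.08, adjusted p = 0.841).

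The cyclins that act later had mean changes of opposite sign, and only that of Ccna1 was called. Ccne1 (cyclin E1), which activates CDK2 at the end of G1, ranged from -3.03 to -1.64 in normal tissue, with a median of -2.43, and from -4.60 to 0.39 in OSCC, with a median of -0.96. In 8 rats the OSCC piece lay above all normal pieces, and in animals 22 and 24 below all of them. The change of 1.02 ± 0.45, a ratio of 2.02, was past the 2-fold limit but not the test (limma adjusted p = 0.0809). In animal 24 it was -2.96 and in animal 26 it was 3.0. Without animal 24 the mean was 1.41 ± 0.30 and was called (limma adjusted p = 0.00395), and without animals 21, 22 and 24 it was 1.70 ± 0.28.

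Ccna1 (cyclin A1), best known from the male germ line and reported as silenced in several human cancers, was the member called lower. It ranged from -2.94 to -1.98 in normal tissue, with a median of -2.23, and from -6.54 to -1.85 in OSCC, with a median of -4.39. In 8 rats the OSCC piece lay below all normal pieces. In animals 21, 22 and 24 it was slightly above the rat's own normal piece, by 0.10, 0.40 and 0.37. The change of -1.94 ± 0.46 corresponded to a 3.83-fold lower signal (limma adjusted p = 0.00634), and without those 3 animals it was -2.77 ± 0.33, lower in all 8 pairs. The study picked Ccna1 for methylation analysis from these same arrays, where it was lower, and from the literature, so its fall here is not independent evidence.

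The probe of Ccna1 was well above background on all 11 normal but only on 4 of 11 OSCC arrays, so the size of the fall rests on signals near background. With normexp background correction the change was -0.67 ± 0.33 and was not called (limma adjusted p = 0.274). The Ccne1 change exceeded the Ccna1 change in 9 of 11 pairs, by 2.95 ± 0.92 on average (exact sign-flip permutation test, two-sided, adjusted p = 0.0171). In the 9 pairs that cross the scan batches the mean was 2.80 and the exact permutation test no longer passed (adjusted p = 0.0586). As Ccna1 was picked partly from these arrays, where it was lower, this difference is not independent evidence either.

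Both INK4 members rose, Cdkn2a more than Cdkn2b, while the family's other genes, Cdkn2c and Cdkn2d, were not called. Cdkn2a ranged from -2.34 to 0.09 in normal tissue, with a median of -1.38, and from -2.58 to 2.87 in OSCC, with a median of 1.95. In 8 rats the OSCC piece lay above all normal pieces. The OSCC piece of animal 24 was the lowest of all 22, while its normal piece was the highest normal one. The change was 2.49 ± 0.62, a 5.64-fold rise seen in 10 of 11 pairs (limma adjusted p = 0.0086), and 98.9% of all probes had a smaller change. It was the largest change among the members, with 4.79 in animal 25, 4.40 in animal 21 and 4.25 in animal 16. In animal 17 it was 0.17 and in animal 24 it was -2.67. Without animals 21, 22 and 24 the mean was 3.09 ± 0.49.

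Cdkn2b encodes p15, an inhibitor of CDK4 and CDK6 from the same locus that transforming growth factor beta induces. Its brighter probe ranged from -1.90 to 0.03 in normal tissue, with a median of -0.77, and from -2.78 to 1.49 in OSCC, with a median of 0.87. In 8 rats the OSCC piece lay above all normal pieces. The change was 1.14 ± 0.34, a 2.21-fold rise (limma adjusted p = 0.0198), with animal 17 at -0.05 and animal 24 at -1.70 the only pairs not higher. Its dimmer probe, printed above, gave 1.70 ± 0.34, a 3.26-fold rise in 10 of 11 pairs (limma adjusted p = 0.00254). The call of the brighter probe sat close to the limits: the mean was 0.94 with arrays scaled by their median, under 2-fold, and the limma adjusted p was 0.0516 in the 9 pairs that cross the scan batches.

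Cdkn2a and Cdkn2b were both higher in 9 of the 11 pairs and both lower in animal 24. The Cdkn2a change was the larger of the 2 by 1.35 ± 0.39 on average and in 9 pairs (exact sign-flip permutation test, two-sided, adjusted p = 0.0163). The size of this difference depends on the probe, and the brighter Cdkn2b probe was used. The dimmer probe changed by 1.70, nearer to the 2.49 of Cdkn2a, and by 1.47 in animal 9. In the pairs of animals 4 and 9, whose tissues were scanned together, Cdkn2a was 2.85 and 1.29 higher in OSCC, Cdkn2b 0.64 and 0.94 higher, and Ccna1 2.06 and 2.59 lower. All 10 members had the direction of their mean change in both of these pairs. With scan batch as a term only these pairs carry the tissue difference, and none of the members was called by limma (adjusted p = 0.331 for Cdkn2a, 0.493 for Cdkn2b and 0.151 for Ccna1). Cdk6 alone had an unadjusted p below 0.05, and 3 of all probes were called.

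Rb1 and E2f1, the effectors of the pathway, showed small differences that were not called. Rb1 ranged from 0.74 to 1.23 in normal tissue, with a median of 1.02, and from 0.38 to 1.40 in OSCC, with a median of 0.60. Of the OSCC pieces 7 lay below all normal ones, and those of animals 22 and 24 above all of them. The change was -0.25 ± 0.14 (95% interval -0.55 to 0.05, limma adjusted p = 0.146), which is -0.01 relative to the median of all probes. Without animals 21, 22 and 24 it was -0.46 ± 0.10, lower in all 8 pairs, with a limma adjusted p of 0.00445, but the median of all probes was then -0.36, and relative to it Rb1 was at -0.10.

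E2f1, the activator E2F that drives genes of DNA replication and its own transcription, ranged from -2.68 to -1.93 in normal tissue, with a median of -2.16, and from -3.05 to -1.24 in OSCC, with a median of -1.99. The groups overlapped widely. The change of 0.23 ± 0.18 (95% interval -0.16 to 0.62) did not pass (limma adjusted p = 0.297). Its second probe, clear of the background on 4 normal arrays and 8 from OSCC, gave 0.47 ± 0.19 (limma adjusted p = 0.0595). E2f1 was higher in OSCC in the 8 pairs outside animals 21, 22 and 24, by 0.54 ± 0.13 on average (limma adjusted p = 0.00568), and lower in those 3. The difference between the E2f1 and Rb1 changes was 0.48 ± 0.30 over 11 pairs (exact sign-flip permutation test, two-sided, adjusted p = 0.134). Without animal 24 it was 0.69, and it passed the exact permutation test (adjusted p = 0.0215).

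The rats differed in how many members were higher. In animals 11 and 13, 8 of the 10 members were higher in OSCC, and in animal 24 only Ccna1 and Rb1 were higher. Ccna1 and E2f1 had opposite signs in all 11 pairs. Ccnd1 and Cdkn2a were both higher in 9 pairs and both lower in animal 24. These are counts over pairs that share the same arrays, and no test was made of them. Animal 24 had the lowest change of 8 members. Proliferation markers were higher in OSCC by 0.78 to 1.5 in animals 4, 9, 11, 13, 16, 25 and 26 and lower in animals 17, 21, 22 and 24. The part of tissue composition in the members' changes was not tested.

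**Figure D2:**
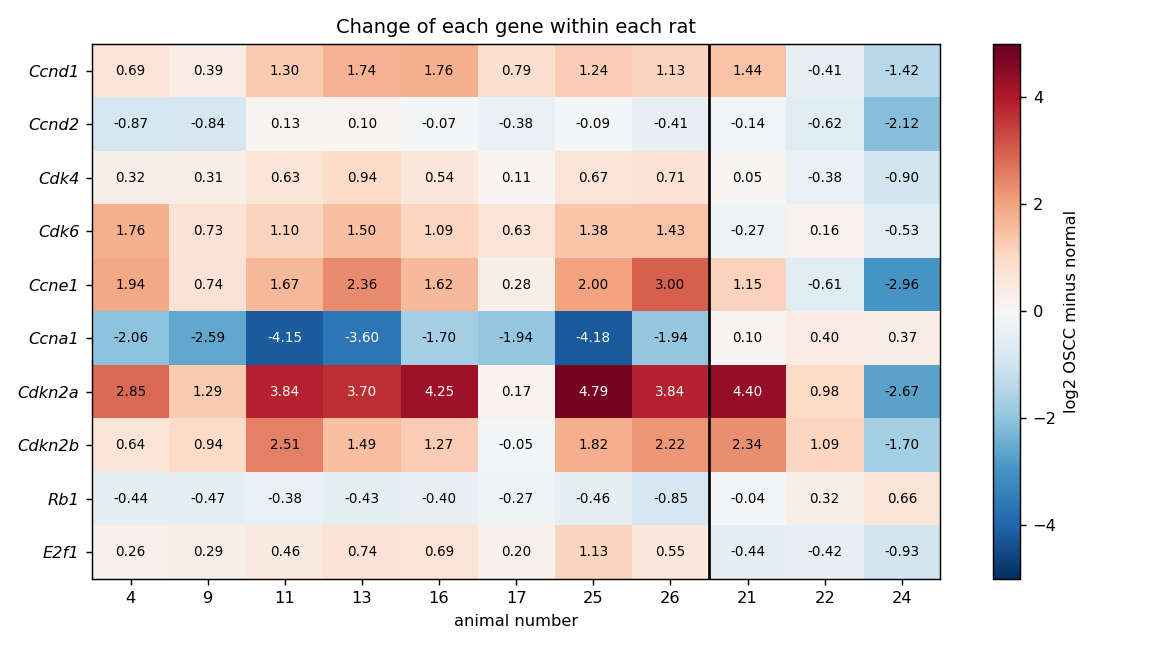
Change in log2 units (OSCC minus normal, color scale and printed values) of each member (rows) in each rat (columns), with animals 21, 22 and 24 to the right of the black line. Outside these animals Ccnd1, Cdk4, Cdk6, Ccne1, Cdkn2a and E2f1 were higher and Ccna1 and Rb1 lower in every rat.

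Other genes of the pathway were described as lists, 77 genes on the array in all, of which 10 were called. This share was near the 13.8% of all probes that were called. The counts of each list below stand beside 6.86% of all probes called higher and 6.97% called lower. Among 19 other G1 and G1/S regulators, Cdkn1c (p57), a CIP/KIP inhibitor, was the gene called lower, with a change of -1.61 ± 0.40 (limma adjusted p = 0.00859), and none was called higher. The list's median change was -0.01. Cdkn1a (p21), a CIP/KIP inhibitor too, was at -0.75 ± 0.15, lower in 10 of 11 pairs and past the test (limma adjusted p = 0.00219) but under 2-fold. Cdkn1b (p27) was at -0.31, lower in 9 of 11 pairs and only just past the test (limma adjusted p = 0.0499). Relative to the median of all probes Cdkn1b was at -0.07. The other INK4 genes measured, Cdkn2c and Cdkn2d, were each at -0.13 and not called (limma adjusted p = 0.522 and 0.518). Ccne2, the paralog of Ccne1, was at 0.72 ± 0.21 (limma adjusted p = 0.0179), higher in 10 pairs. Ccnd3 at 0.14, Ccna2 at 0.39 and Cdk2 at 0.15 did not pass.

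Of 6 other genes measured for Rb relatives, E2F factors and E2F partners, 1 was called in each direction, with a median change of 0.25. Another 5 genes of this list, among them E2f2, E2f4, E2f5 and E2f6, were not found on the array. Tfdp2, an E2F dimerization partner, was 1.17 lower (limma adjusted p = 0.0081). E2f3, an activator E2F, was higher in all 11 pairs with a limma adjusted p of 0.000567, but its signal cleared the background on none of the normal and on only 5 of the OSCC arrays, so no fold is given.

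Among 22 S phase genes that E2F factors drive, 3 were called higher and none lower, and 20 had a change above 0, with a median of 0.38. Rrm2, a subunit of ribonucleotide reductase, was 1.30 ± 0.44 higher (limma adjusted p = 0.0327). Orc1 and Cdc6, which license replication origins, were 1.14 ± 0.28 and 1.06 ± 0.28 higher (limma adjusted p = 0.00786 and 0.0112), each with a probe well above background on 7 normal arrays. The list held 1 call with quantile normalization, with arrays scaled by their median and with the filter on dim probes, and none with normexp background correction or with scan batch as a term. Leaving out any of animals 11, 13, 25 or 26 left 1 call in this list, leaving out animal 24 gave 5, and leaving out animals 21, 22 and 24 gave 10. None of the 11 proliferation markers was called, and their median change was 0.06.

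Of 18 other oral cancer driver genes, 2 were called higher and none lower, with a median of -0.14. Casp8, the initiator caspase of death receptors, was 1.34 ± 0.16 higher and Met, the hepatocyte growth factor receptor, 1.14 ± 0.15 higher, each in all 11 pairs (limma adjusted p = 0.00021 and 0.000355). Met was well above background on 6 normal arrays. Egfr was at 0.44 (limma adjusted p = 0.0425) and not called. Erbb2 was at -0.88, lower in all 11 pairs, and just under 2-fold.

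**Figure D3:**
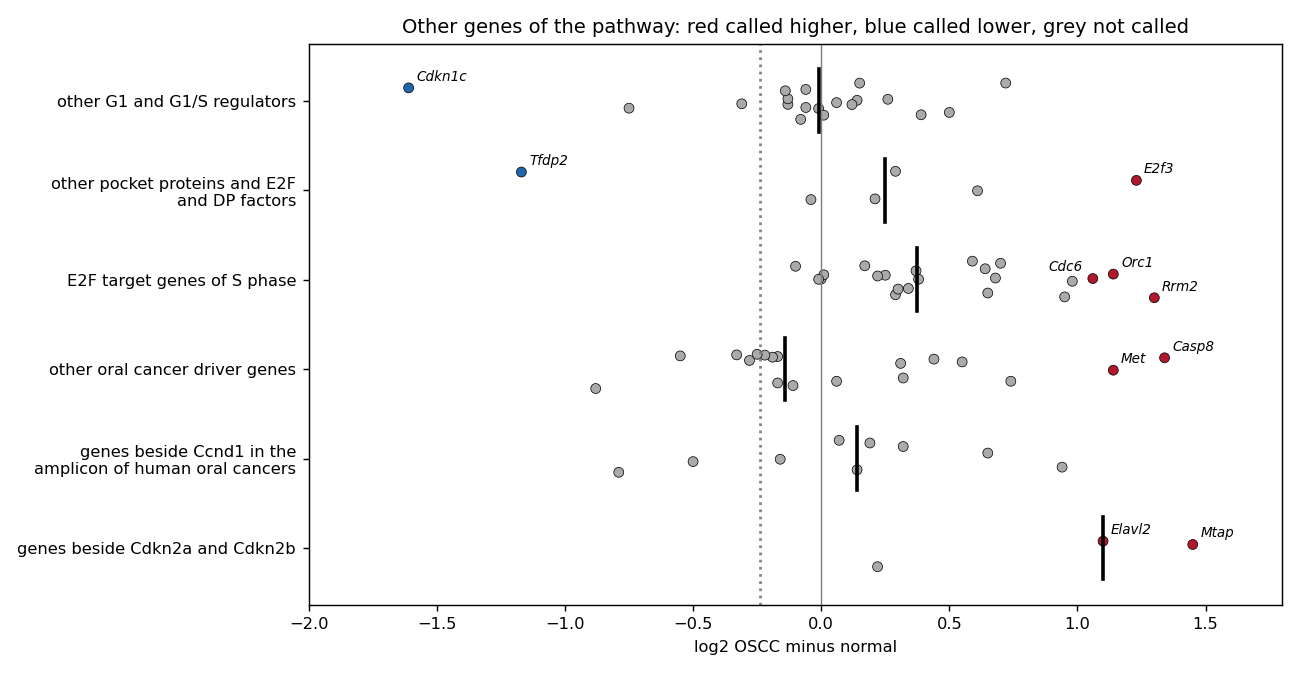
Change in log2 units (OSCC minus normal) of every measured gene of the 6 lists, with red for genes called higher, blue for genes called lower and grey for the rest. Black bars mark each list's median, the solid line is 0 and the dotted line the median of all probes at -0.24. The called genes are Cdkn1c, Tfdp2, E2f3, Rrm2, Cdc6, Orc1, Casp8, Met, Elavl2 and Mtap.

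The genes beside the members on the chromosome were read as well, since CCND1 and CDKN2A change in copy number with their neighbors in human oral cancer. None of 9 genes of the human CCND1 amplicon was called, and their median change was 0.14. Fadd, an adaptor of death receptors, was at 0.94 ± 0.21 (limma adjusted p = 0.00484), higher in 10 of 11 pairs, while Cttn (cortactin) was at 0.14 (0.644) and Oraov1, which RefSeq lists as Lto1 and places next to Ccnd1, at -0.16. Fgf4 and Shank2 did not clear the background on a single array. Without animal 24, as without animal 4, 1 gene of this list was called.

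Next to Cdkn2a, on the side away from Cdkn2b, lies Mtap, the methionine salvage enzyme that is often lost together with CDKN2A in human tumors. It was 1.45 ± 0.28 higher in OSCC, in 10 of 11 pairs (limma adjusted p = 0.00219). Dmrta1, beyond Cdkn2b, was well above background on 1 array. Elavl2, farther along, was called higher, but on no normal and 5 OSCC arrays was it well above background, so no fold is given. Mtap, Cdkn2a and Cdkn2b, which lie close together on rat chromosome 5, were all called higher. Copy number was not measured in these files.

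The marker lists describe the cell types of the pieces. The list of basal squamous epithelium does not separate carcinoma cells from normal epithelium. Of 8 markers of basal squamous epithelium 2 were called higher, Itga6 by 1.77 and Dsg3 by 1.07, and 1 lower, the keratin Krt15 with a change of -2.54. The basal keratins Krt5 at -0.08 and Krt14 at 0.29 were well above background on all arrays and not called. Skeletal muscle markers were called lower for 6 of 10 genes and higher for 1, Myh2, with a summed level of 1240 to 2570 on the normal and 66.4 to 2670 on the OSCC arrays. Called higher were 6 of 8 fibroblast markers, 5 of 6 neutrophil markers, 5 of 8 macrophage markers, 6 of 8 T cell markers, 3 of 5 B and plasma cell markers and all 7 serous gland markers, and of 6 endothelial markers none was called. The summed levels of fibroblast markers were 53.7 to 95 in normal tissue and 49.9 to 445 in OSCC. None of the 5 B and plasma cell markers cleared the background in normal tissue. Which of these cells carried the members' signal was not tested.

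The direction of change was kept for 9 members in 27 alternative processings and subsets of the pairs and for Cdk6 in 26, since the filter on dim probes removed it, while the size and the calls were not. These are not separate checks. With no replicate block, no minimum fold or the methods' t-test the mean change cannot move, and 11 alternatives leave out 1 pair each.

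**Figure D4:**
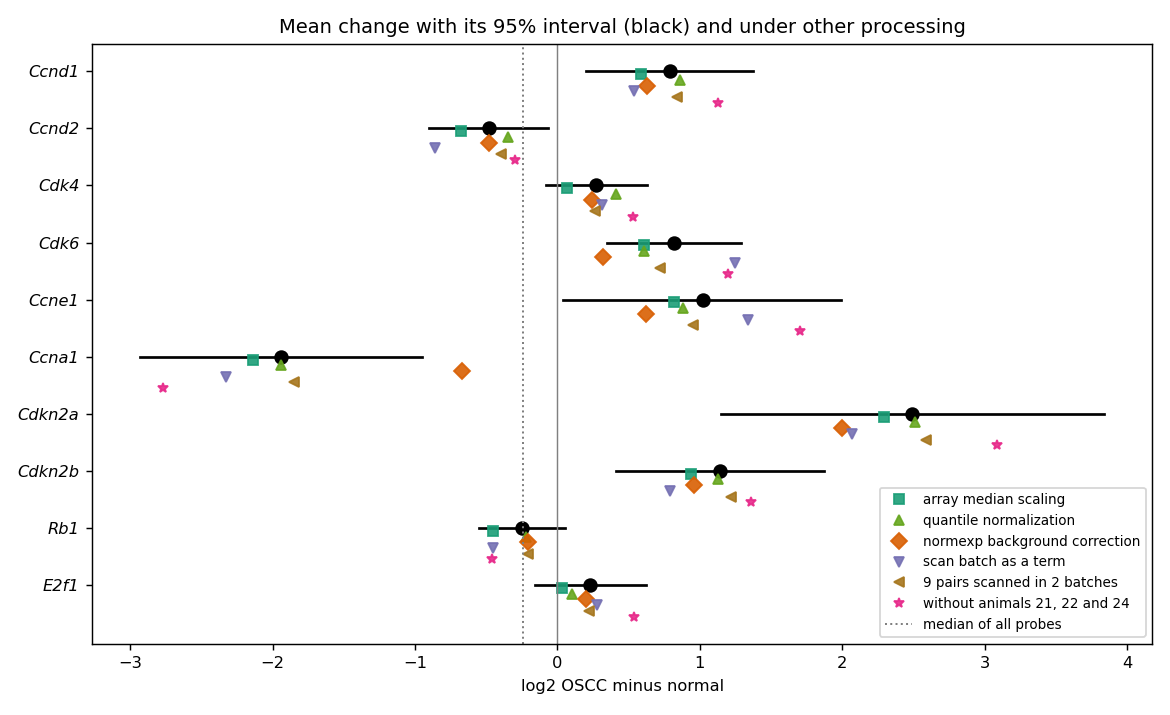
Mean change in log2 units (OSCC minus normal, horizontal axis) of each member with its 95% interval from limma over 11 pairs (black), and its value under 6 alternatives (colored symbols). The dotted line is the median change of all probes. The Ccna1 value moved to -0.67 with normexp background correction. Without animals 21, 22 and 24 the values of all members but Ccnd2 lay farther from 0.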

How the data were processed

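RNA from 11 OSCC and 11 normal tongue pieces was hybridized by the authors to single-color Agilent rat arrays and read with Agilent Feature Extraction 9.5.3.1, as the file headers give it. The intensity values deposited by the authors are background-subtracted, detrended signals, not scaled between arrays. They also deposited a signal table divided by each array's 75th percentile, which equals this intensity ratio within 2% for 99.97% of values at or above 0.5. Here control spots and 9196 outlier spots (0.975%) were left out, the spots of each probe were averaged on the log2 scale, and the array's own 75th percentile was taken off. No probe was filtered for low signal, and 68 probes lacked a value on at least 1 array.

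The tissues were compared by a linear model in limma 3.58.1 (R 4.3.3) that held a term for the animal and a term for the tissue, and p-values were adjusted by Benjamini-Hochberg over 30367 probes. Each animal gave both tissues, which makes the pairing, and the residuals of an animal's pieces about the tissue means correlated by -0.21 to 0.24. The 9 pairs that cross the scan batches were also taken alone. Differences between members' changes were tested by sign flips over the pairs (Python 3.11.15). The study's methods name a t-test, run as an alternative. On simulated data 80 of 100 probes changed by 1.5 log2 units and 98 of 100 changed by 3 were called, with 7 false calls among 30299. The simulated noise had equal spread in both tissues and held no scan batch or background floor, unlike the data, so the error rates here can differ. List genes were found by symbol or, through accessions, by RefSeq, which matched 17328 probes.

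Every member was named with all its probes, and in each list at most 4 called genes with the largest change, beside a fixed set of family genes, of which 1 is not reported here. Members, lists, comparisons and alternatives were chosen with earlier results of these data known. The number of arrays limits the precision, and for dim genes the signal over background. The quantitative PCR and methylation data of the study were not analysed here.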

Additional observations from a re-analysis of the deposited data

How the results depend on the processing

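The 11 pairs, the scan batches and signal near background set the limits. Among the probes called, 4201 in all, the count was 1701 with normexp, 2715 with a filter on dim probes, 3 with scan batch as a term (9578 at an unadjusted p under 0.05 and 2-fold), 6924 without animals 21, 22 and 24, and 13376 with no minimum fold. Members called higher, 2 as reported, were 1 under array median scaling, normexp, the slide as a random block and the 9 pairs that cross the scan batches, 0 with scan batch as a term, 5 without animals 21, 22 and 24, and 4 with no minimum fold. Members called lower, 1 as reported, were 0 with normexp and with scan batch as a term. Of the pathway list genes, 10 called as reported, 2 were called with normexp, 6 with the filter, 0 with scan batch as a term, 21 without animals 21, 22 and 24, and 27 with no minimum fold. The cause of these shifts was not tested, apart from the fewer probes left by the filter and the 2 pairs left by the scan term.

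Leaving out each pair in turn gave 3649 to 4799 probes, 2 to 4 members higher (4 without animal 24), 1 member lower each time, and 7 to 13 list genes. The difference between changes ranged from 1.21 to 1.38 for Ccnd1 minus Ccnd2, -0.63 to -0.45 for Cdk4 minus Cdk6, 2.63 to 3.58 for Ccne1 minus Ccna1, 1.19 to 1.58 for Cdkn2a minus Cdkn2b and 0.37 to 0.69 for E2f1 minus Rb1. Cdk4 minus Cdk6 was -0.20 with quantile normalization and -0.08 with normexp, Ccne1 minus Ccna1 was 2.80 in the 9 pairs, and E2f1 minus Rb1 was 1.00 without animals 21, 22 and 24, where it passed the test. Without the replicate block for animal, 4227 probes, 2 members higher, 1 member lower and 10 list genes were called, so the members' calls were the same in number with and without the pairing. The methods' t-test called 4248 probes at its unadjusted threshold and 4002 after Benjamini-Hochberg adjustment, each with 2 members higher and 1 lower.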

Other observations

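Among 9550 genes well above background on all 22 arrays, those whose changes over the 11 pairs were most like the change of Cdkn2b were Txn1, which encodes thioredoxin, Trim29 and Avpi1, with Pearson r of 0.98, 0.97 and 0.97. For Cdkn2a they were RGD620382, Ard1a and Pgam1, a glycolytic enzyme, with r of 0.97, 0.96 and 0.94. None of these 6 genes was itself called: the mean changes were 0.06, -0.07 and 0.15 for the first group and -0.22, -0.26 and 0.61 for the second. The pair of animal 24 lies far from the others, and without it r was 0.95, 0.93 and 0.91 for Cdkn2b and 0.93, 0.91 and 0.86 for Cdkn2a. These values were picked as the highest of many and come from the same arrays, so they describe likeness only.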
